A study of Mus musculus with 8 samples.

Results

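The keratin genes were described here as a set of 49 RefSeq protein-coding genes, chosen by symbol (Krt followed by a number and nothing else) from 21887 protein-coding genes of the mouse assembly GRCm38.p6 (mm10). Of these, 25 lie on chromosome 11 and 24 on chromosome 15, each set in 1 cluster, and 0 lie outside a cluster. The choice used no binding value. Another 4 keratin genes, whose symbols end in a letter (Krt6a, Krt6b, Krt33a and Krt33b), did not match the rule, and Krt74 is listed as a transcribed pseudogene.

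Binding of ZFP281, a zinc finger transcription factor that recognises G-rich DNA, was measured by chromatin immunoprecipitation sequencing (ChIP-seq) in sphere cultures from FvB mice carrying the MMTV-HER2/Neu transgene. In this model the mouse mammary tumour virus promoter drives the HER2/Neu oncogene mainly in mammary epithelium, so both groups carry the transgene and neither is a normal tissue. Early lesion (EL) spheres came from animals of 14 to 18 weeks with no palpable tumour, with the tissue label "mammary lung". Primary tumour (PT) spheres came from tumour-bearing animals older than 20 weeks, with the tissue label "breast tumor". Cells of both groups, labelled breast cancer cells, were grown for 7 days in mammosphere medium on plates to which they do not adhere. Each group has 3 ZFP281 libraries that the labels call biological replicates, and 1 input that was not used here. The labels do not say which animals gave each library or whether animals were pooled, so a p-value measures only the spread between these libraries. Age, tumour stage and tissue label differ together between the groups and cannot be told apart.

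Keratins are the intermediate filament proteins of epithelial cells. A type I keratin, encoded on chromosome 11 or, for Krt18, on chromosome 15, pairs with a type II keratin, encoded on chromosome 15, and the pair used marks the kind of epithelium. In the mammary gland, Krt8, Krt18, Krt19 and Krt7 are known as luminal keratins, and Krt5, Krt14, Krt17 and Krt15 as basal ones. Other members build the epidermis, the hair shaft or the inner root sheath, which moulds the growing hair.

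What was deposited for each library is a list of summits, the positions of strongest signal within a peak, each with a score. The EL lists held 8588, 15770 and 7055 summits in replicates 1, 2 and 3, and the PT lists 2897, 4030 and 6033. Read depth is unknown, so each count is given for the full lists and for lists of equal length, the 2897 summits of highest score in each library. A gene is called bound when a summit lies within 1 kb of either of its boundaries. By that rule 13.5%, 20.8% and 11.7% of all protein-coding genes were bound in EL replicates 1 to 3, and 5.76%, 7.53% and 11.1% in PT replicates 1 to 3. With lists cut to equal length those shares lay between 5.75% and 6.21% in all 6 libraries. The lowest score kept in these lists was 12.5, 23.3 and 10.3 in EL replicates 1 to 3 and 1.42, 6.61 and 8.74 in PT replicates 1 to 3, so the equal-length lists do not share a score limit. A gene without a summit was not detected as bound at an unknown depth, which does not show that binding was absent, and binding in fewer cells cannot be told apart from weaker binding in each cell.

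The sequences before the start sites of the main luminal pair and the main basal pair are shown first, since few of the summits fell near them. They are the 250 bases upstream of the RefSeq start (GRCm38.p6, 5′ to 3′ on the gene's strand), with each CpG dinucleotide in capitals. Krt8 encodes the type II luminal keratin (chr15:102004343-102004592, minus strand) and Krt18 its type I partner (chr15:102027966-102028215, plus strand). Krt5 encodes the type II basal keratin (chr15:101712906-101713155, minus strand) and Krt14 its type I partner (chr11:100206031-100206280, minus strand). For comparison, Eif1, a translation initiation factor gene at the edge of the chromosome 11 window, is shown because summits of 3 libraries fell inside this stretch (chr11:100319699-100319948, plus strand).
Krt8: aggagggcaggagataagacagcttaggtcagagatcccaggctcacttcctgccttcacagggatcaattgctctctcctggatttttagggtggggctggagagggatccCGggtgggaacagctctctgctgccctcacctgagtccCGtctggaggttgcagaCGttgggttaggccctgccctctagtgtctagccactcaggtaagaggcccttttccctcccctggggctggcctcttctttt
Krt18: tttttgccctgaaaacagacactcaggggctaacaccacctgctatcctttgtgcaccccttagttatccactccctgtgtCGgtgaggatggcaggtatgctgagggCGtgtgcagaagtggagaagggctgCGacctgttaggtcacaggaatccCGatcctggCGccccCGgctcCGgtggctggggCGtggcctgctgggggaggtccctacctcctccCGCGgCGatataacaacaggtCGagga
Krt5: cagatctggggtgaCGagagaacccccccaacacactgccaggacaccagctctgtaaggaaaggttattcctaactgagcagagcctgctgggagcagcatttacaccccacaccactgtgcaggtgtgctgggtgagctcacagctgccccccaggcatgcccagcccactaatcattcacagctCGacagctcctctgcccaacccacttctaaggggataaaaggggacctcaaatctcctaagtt
Krt14: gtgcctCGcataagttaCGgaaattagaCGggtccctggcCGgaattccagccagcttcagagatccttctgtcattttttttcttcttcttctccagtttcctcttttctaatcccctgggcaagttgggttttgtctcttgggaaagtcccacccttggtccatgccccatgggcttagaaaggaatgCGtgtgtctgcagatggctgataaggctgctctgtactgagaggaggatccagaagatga
Eif1: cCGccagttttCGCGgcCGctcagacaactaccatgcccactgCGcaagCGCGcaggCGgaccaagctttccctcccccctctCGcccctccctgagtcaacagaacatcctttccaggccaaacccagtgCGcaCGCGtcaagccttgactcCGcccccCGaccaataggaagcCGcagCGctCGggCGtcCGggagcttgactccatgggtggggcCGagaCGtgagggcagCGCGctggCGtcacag
The printed stretches hold 3 CpG in Krt8, 12 in Krt18, 2 in Krt5, 5 in Krt14 and 24 in Eif1. Among these 4 keratins, Krt18 has the most CpG, and it is also the only one that was bound in any library. Its summit, in PT replicate 3 only, lay 479 bp downstream of the start and so outside the printed stretch. Krt7, not printed, has 21 CpG in the 300 bases around its start against 17 for Krt18, and was not bound. A link between CpG and binding was not tested in these genes.

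Keratin genes were seldom bound. In the full lists the number of bound keratin genes was 0, 2 and 0 in EL replicates 1 to 3 and 0, 0 and 2 in PT replicates 1 to 3. The group means were equal (0.667 genes in each, difference 0, exact permutation test, two-sided, p = 1). Over all libraries 4 of 49 keratin genes (8.16%) were bound in 1 or more, against 23.1% of all protein-coding genes, and 45 were bound in none. With lists of equal length 1 of 49 was bound, against 10% of all genes. No keratin gene was bound in all 3 EL libraries and no PT library, a class that holds 1.94% of all genes. None was bound in all 3 PT libraries and no EL library (0.0457% of all genes), and none in all 6 libraries (4.39% of all genes).

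Each bound keratin gene was bound in a single library. Krt18, the type I partner of Krt8 in luminal and other simple epithelia, had a summit 479 bp downstream of its start in PT replicate 3, with a score of 16.9 at the 77.1 percentile of that list. It was the only keratin gene bound at equal list lengths. Krt36, a type I hair keratin, had a summit 470 bp inside its lower boundary in PT replicate 3 (score 5.66, percentile 29.7). That position lies 3144 bp downstream of the listed start, towards the end of the gene. Krt80, a type II epithelial keratin, and Krt88, grouped here with the type II epithelial keratins, were bound in EL replicate 2 only, by summits 912 bp and 900 bp inside a boundary. Those summits stood at the 7.55 and 18.1 percentiles of the longest list, with scores of 3.60 and 4.45. Without EL replicate 2 and PT replicate 3 no keratin gene was bound within 1 kb of a boundary.

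By class, 1 of 15 type I epithelial, 1 of 7 type I hair and 0 of 4 type I inner root sheath keratins were bound in any library. Of the type II keratins, 2 of 13 epithelial, 0 of 6 hair and 0 of 4 inner root sheath keratins were bound. Of the 4 luminal keratins, Krt18 alone was bound, in 1 library. Of the 4 basal keratins none was bound in any library. The 3 other luminal keratins differ in how far away the nearest summit lay. For Krt8 it lay 10.6, 2.18 and 10.4 kb from the gene in EL replicates 1 to 3 and 2.16, 2.22 and 2.23 kb in PT replicates 1 to 3. For Krt7, which marks ducts and glands, it lay 30.6, 25.2 and 30.5 kb away in EL and 579, 84.9 and 84.9 kb in PT. For Krt19, the smallest type I keratin, it lay 217, 143 and 217 kb away in EL and 143, 174 and 38.3 kb in PT. Krt8 is thus the only luminal keratin besides Krt18 with a summit within 5 kb, and that summit is described below with its region. Of the basal pair, Krt5 had its nearest summit at 210 kb in each EL library and at 294, 165 and 165 kb in PT. Krt14 had it at 156, 81.8 and 156 kb in EL and at 81.8, 112 and 82.8 kb in PT.

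The count of bound keratins changed with the reach of the rule. Within 500 bp of a boundary it was 0 in every library except PT replicate 3, where it was 2. Within 5 kb it was 0, 4 and 0 in EL and 1, 1 and 3 in PT. With the whole gene body counted as well it was 1, 3 and 1 in EL and 0, 0 and 3 in PT. Within 1 kb of a start site, known for 35 of the 49 genes, it was 0 in every library except PT replicate 3, where it was 1. Under each of these rules at most 4 keratin genes were bound in a library, and no difference between EL and PT reached the smallest p that 3 libraries against 3 allow, 0.1. The share of all genes was counted for the 1 kb boundary rule only, so the other counts have no baseline. Many keratin genes are close paralogues with near-identical stretches, and how reads that match several places were handled is not given in the sources used here, so a missing summit at such a gene is uncertain.

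The 2 clusters differed in how many summits they held. Each was examined with 50 kb on either side, as a window. The chromosome 15 window (chr15:101298315-102082026, 783.7 kb) held 9, 12 and 8 summits in EL replicates 1 to 3 and 3, 6 and 10 in PT replicates 1 to 3 (9.67 ± 2.08 against 6.33 ± 3.51, SD, n = 3 each, difference 3.33, exact permutation test, two-sided, p = 0.3). The groups overlapped, with PT replicate 3 above EL replicates 1 and 3. Each of the equal-length EL lists had 5 summits there and the PT lists had 3, 5 and 8 (difference −0.333, exact permutation test, p = 1), so the direction of the difference turned. The chromosome 11 window (chr11:99182761-100319951, 1137 kb) held 0, 2 and 0 summits in EL and 1, 1 and 4 in PT (0.667 ± 1.15 against 2.00 ± 1.73, SD, n = 3 each, difference −1.33, exact permutation test, p = 0.5). The equal-length lists held 0 in each EL library and 1, 0 and 1 in PT (exact permutation test, p = 0.4). With flanks of 100 kb the chromosome 11 difference turned to 1.67.

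**Figure D1:**
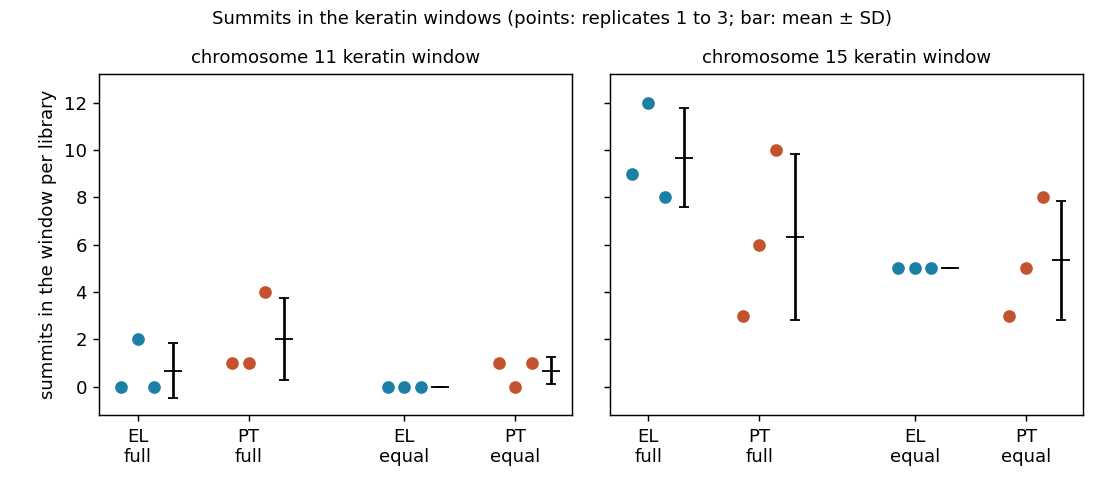
Summits per library in each keratin window (vertical axis, count) for EL (blue) and PT (red), in full lists and at equal list lengths. Points are replicates 1 to 3 from left and the black bar beside them is the mean ± SD. The chromosome 11 window holds at most 4 summits in a library, and the chromosome 15 window 3 to 12.

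Set against their chromosomes, the windows stood on opposite sides. The chromosome 15 window held 2.97, 2.15 and 3.32 times the summit density of chromosome 15 in EL replicates 1 to 3 and 2.97, 3.82 and 4.20 times in PT replicates 1 to 3. The chromosome 11 window held 0, 0.157 and 0 times the density of chromosome 11 in EL and 0.376, 0.268 and 0.729 times in PT. In every library the chromosome 15 window was above its chromosome's density and the chromosome 11 window below it. The ratios at equal list lengths ran from 2.97 to 6.93 on chromosome 15 and from 0 to 0.376 on chromosome 11. These ratios describe 2 windows and carry no test.

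For both windows together, summits per 1000 summits of the list came to 1.05, 0.888 and 1.13 in EL replicates 1 to 3 and to 1.38, 1.74 and 2.32 in PT replicates 1 to 3 (1.02 ± 0.125 against 1.81 ± 0.474, SD, n = 3 each, difference −0.790). Every PT library lay above every EL library, which gives the smallest p the exact permutation test allows (two-sided, p = 0.1). Among equal-length lists each EL library had 1.73 and the PT libraries 1.38, 1.73 and 3.11, so the groups overlapped (difference −0.345, exact permutation test, p = 1). The full-list difference also shrank with other flanks, to −0.399 with none (exact permutation test, p = 0.3) and to −0.249 with 100 kb (p = 0.8).

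**Figure D2:**
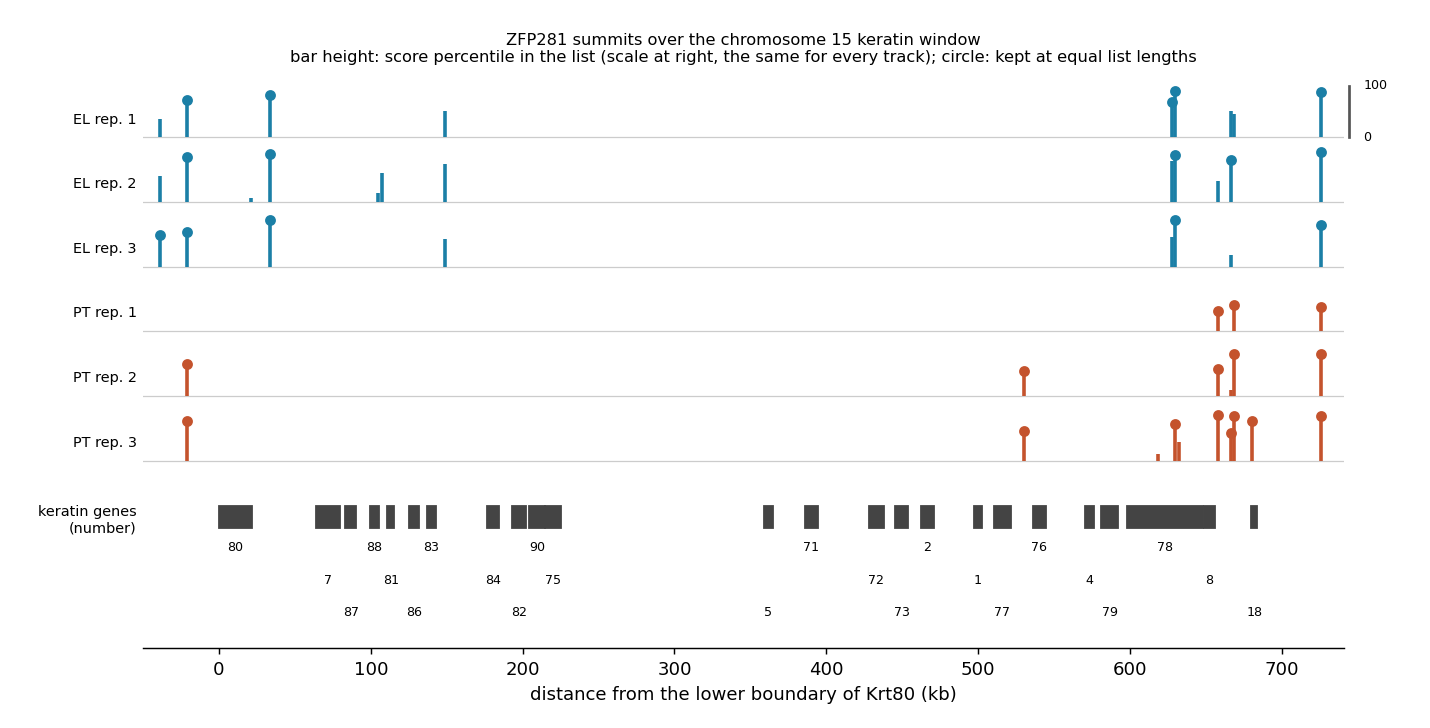
Summits of each library (rows; EL blue, PT red) across the chromosome 15 keratin window, by distance from the lower boundary of Krt80 (horizontal axis, kb). Bar height is the score percentile of the summit in its own list, circles mark summits kept at equal list lengths, and grey boxes are the keratin genes with their numbers. Summits lie at both ends of the window, and between Krt83 and Krt76 none of the 6 libraries has one over 381 kb.

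Pooling summits from all libraries and joining those within 200 bp of each other gave regions, 17 in the chromosome 15 window and 5 in the chromosome 11 window. On chromosome 15, 11 regions were found in 2 or more libraries, 6 in 4 or more, and 1 in all 6. The remaining 6 were found in a single library, 3 in EL replicate 2 and 3 in PT replicate 3. Of the 17 regions, 7 lay inside a keratin gene. Among all 19317 regions, 3853 were found in 4 or more libraries. The shares of all regions in 2 or more, in 1 or in all 6 libraries were not counted, nor was the share inside a gene. Over both windows, 4 of 22 regions were found in all 3 EL libraries and no PT library, against 10% of all 19317 regions. None was found in all 3 PT libraries and no EL library (0.704% of all regions). In the equal-length lists 1 of 13 regions was EL-only by this rule, against 7.23% of all regions, and 2 of 13 were PT-only, against 6.23%. All 4 EL-only regions of the full lists lie on chromosome 15, near Krt80, near Krt83 or inside Krt78. With so few regions these shares are a description.

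The EL-only region with the highest scores lay 11.7 kb beyond Krt80 (chr15:101381847-101381912), within the non-coding RNA gene Gm35853 and 30.5 kb upstream of the start of Krt7. Its score was 19.4, 46.8 and 27.5 in EL replicates 1 to 3, at percentiles of 81.7, 93.0 and 90.0. No PT library had a summit there. Among the equal-length lists it was the only region held in every EL list and in no PT list. Another region of this kind lay 5.78 kb from Krt83, a hair keratin gene (chr15:101497280-101497306), at percentiles of 51.5, 73.1 and 54.2 in EL. Another lay inside the Krt78 gene model (chr15:101976210-101976286), at 69.0, 79.7 and 57.0. The remaining one, at the edge of the window, lay 39.1 kb from Krt80 and 11769 bp from Smim41 (chr15:101309157-101309233), at 34.8, 51.0 and 61.3. In lists of equal length the Krt83 region was held by no library and the other 2 by 1 EL library each, so 3 of the 4 were not EL-only regions by that measure.

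A further region lay 20.8 kb below Krt80, away from any other keratin gene (chr15:101327472-101327512). Its percentiles were 72.0, 86.7 and 67.3 in EL replicates 1 to 3, and 60.8 and 77.4 in PT replicates 2 and 3. PT replicate 1, the shortest list, had none, and the 2 PT values lay within or near the EL range (difference 29.3 with 0 entered for the missing summit, exact permutation test, p = 0.3). It remained in the equal-length lists of those 5 libraries. This region did not separate the groups.

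Krt78, a type II keratin of stratified epithelia, has a long RefSeq gene model of 50624 bp (chr15:101946001-101996624) that holds 4 regions. The strongest, 19 kb inside its upper boundary and 23.3 kb upstream of the start in the promoter table (chr15:101977603-101977644), had scores of 29.4, 40.0 and 28.5 in EL replicates 1 to 3 and 13.7 in PT replicate 3. Its percentiles were 89.9, 91.0 and 90.5 in EL and 70.6 in PT replicate 3, with no summit in PT replicates 1 and 2 (90.5 ± 0.525 against 23.5 ± 40.8, SD, n = 3 each, with 0 for a missing summit). All EL values were above all PT values (difference 66.9, exact permutation test, two-sided, p = 0.1, adjusted p = 0.3 over 6 regions). The 4 libraries also held it at equal list lengths. Of all regions found in 4 or more libraries, 37.7% had every EL percentile above every PT percentile, and of the 6 such keratin regions 1 did. The other 2 regions of this gene model were found in PT replicate 3 only, at percentiles of 12.4 and 36.4.

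Between the genes of the luminal pair the pattern ran the other way. Krt8 and Krt18 lie next to each other, 35.3 kb from the lower boundary of Krt8 to the upper boundary of Krt18 (chr15:101996711-102032026). That stretch held 2, 2 and 1 summits in EL replicates 1 to 3 and 2, 3 and 4 in PT replicates 1 to 3. The same stretch held 0, 1 and 0 in EL and 2, 2 and 4 in PT at equal list lengths (means 0.333 and 2.67). The rest of the window below Krt8, 698 kb, held 6, 9 and 6 summits in EL and 0, 2 and 5 in PT, and 4, 3 and 4 against 0, 2 and 3 at equal list lengths. These stretches were drawn after the positions had been seen, so no test is given for either.

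The region nearest to Krt8 lay 2196 bp upstream of its start (chr15:102006505-102006572), in the non-coding RNA gene Gm36026 and outside the 250 bases printed above. Scores there were 8.32, 9.79 and 29.7 in PT replicates 1 to 3, at percentiles of 39.1, 51.2 and 88.7, and 7.07 in EL replicate 2, at percentile 40.0. EL replicates 1 and 3 had no summit there, and PT replicate 1 lay just below EL replicate 2, so the groups overlapped (13.3 ± 23.1 against 59.7 ± 25.8, SD, n = 3 each, difference −46.4, exact permutation test, two-sided, p = 0.2, adjusted p = 0.3). Among the equal-length lists it was held by all 3 PT libraries and no EL library.

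The region upstream of Krt18 lay 11.3 kb from its start (chr15:102016874-102016974), in the non-coding RNA gene Gm41404. Scores were 10.2, 19.2 and 26.3 in PT replicates 1 to 3, at percentiles of 51.2, 81.4 and 86.6, and 8.02 in EL replicate 1, at 44.7. EL replicates 2 and 3 had no summit there, and all PT values were above all EL values (14.9 ± 25.8 against 73.1 ± 19.1, SD, n = 3 each, difference −58.2, exact permutation test, two-sided, p = 0.1, adjusted p = 0.3). Of all regions found in 4 or more libraries, 5.14% had every PT percentile above every EL percentile, and of the 6 keratin regions this 1 did. It too was held by all 3 PT and no EL library at equal list lengths, which makes the 2 regions next to Krt8 and Krt18 the PT-only regions counted above.

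Between them, 10.5 kb upstream of Krt8 and also within Gm41404, lay a region with no such separation (chr15:102014728-102014986). Its percentiles were 50.6, 82.0 and 22.4 in EL replicates 1 to 3, and 12.3 and 54.1 in PT replicates 2 and 3. PT replicate 1 had no summit there, and the groups overlapped (difference 29.5, exact permutation test, p = 0.3). Of the equal-length lists, EL replicate 2 and PT replicate 3 held it. The summit inside Krt18 itself, in PT replicate 3, completes this stretch.

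**Figure D3:**
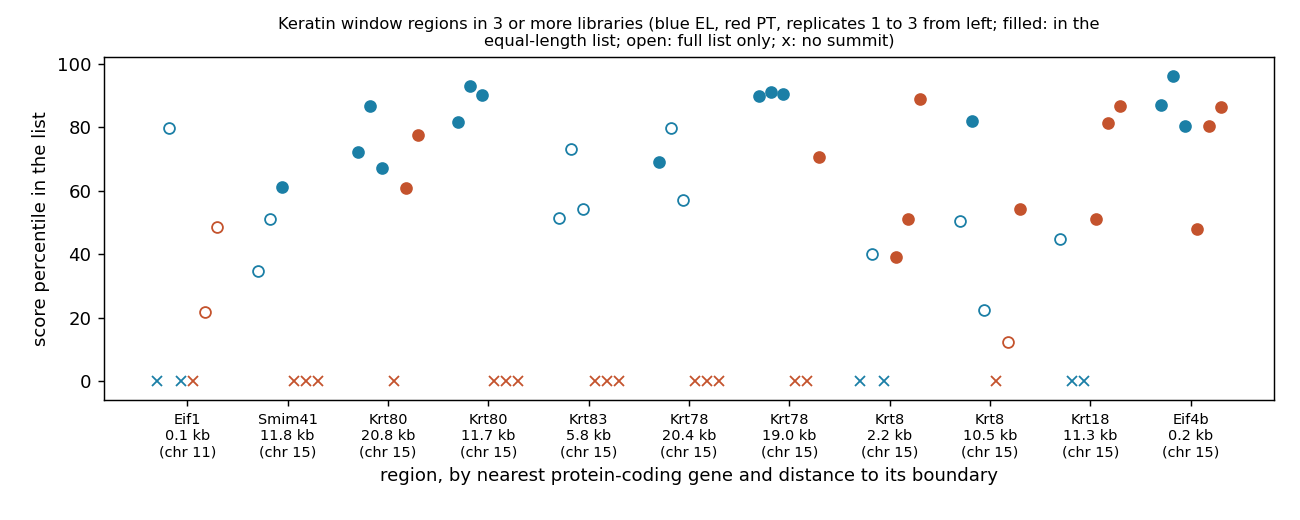
Score percentile in its own list (vertical axis) of each region of the keratin windows found in 3 or more libraries, named by the nearest protein-coding gene and the distance to its boundary. Blue points are EL and red points PT, replicates 1 to 3 from left, filled where the summit is kept at equal list lengths, and a cross at 0 marks a library with no summit. The region inside Krt78, 19 kb from its boundary, has EL at 89.9 to 91.0, and the region 11.3 kb from Krt18 has PT at 51.2 to 86.6.

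The middle of the chromosome 15 cluster was empty. Between the Krt83 region and the next one, 381 kb away, no library had a summit, and this gap holds 11 keratin genes from Krt84 to Krt77. They include Krt5, Krt1, a keratin of the upper epidermis, and the inner root sheath keratins Krt71, Krt72 and Krt73. Of 19296 gaps between neighbouring regions 1279 (6.63%) were at least as long, 50 of them on chromosome 15. This share counts gaps and not the bases they cover. Long gaps cover a larger share of the bases, so a gene lies in one more often than 6.63% would imply. The gap ended at a region 6.07 kb from Krt76 and 8580 bp upstream of Krt77 (chr15:101878279-101878292). It was found in PT replicates 2 and 3 at percentiles of 48.4 and 56.7, with scores of 8.90 and 9.65, and in no EL library.

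The region found in all 6 libraries belonged to a neighbour of the cluster. It lay 244 bp inside Eif4b, which encodes a translation initiation factor (chr15:102073892-102074143), 42.0 kb beyond Krt18. Percentiles were 87.0, 96.0 and 80.3 in EL replicates 1 to 3 and 47.9, 80.2 and 86.2 in PT replicates 1 to 3 (87.8 ± 7.85 against 71.4 ± 20.6, SD, n = 3 each, difference 16.4, exact permutation test, p = 0.2). The groups overlapped, and all 6 libraries kept it at equal list lengths. There the mean percentiles were 63.94 in EL and 63.88 in PT (difference 0.0575). Of the 4 protein-coding genes in this window that are no keratins, Eif4b was the only one bound, where 23.1% of all genes were bound in 1 or more libraries.

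On chromosome 11 the longer stretch without a summit ran over 953 kb, from before Krt222 to the summit in Krt36. It spans 57 protein-coding genes, of which 16 are keratin genes and 23 encode keratin-associated proteins, the matrix proteins of the hair shaft. The keratins in it include Krt10, the type I partner of Krt1 in the epidermis, Krt20, a keratin of the gut lining, the inner root sheath keratins Krt25 to Krt28 and all type I hair keratins of the set but Krt36. Of all gaps 481 (2.49%) were at least as long, 15 of them on chromosome 11. As before, this is a share of the number of gaps and not of the bases they cover. A second gap of 186.8 kb followed, with 8 keratin genes: Krt13, Krt15, Krt19, Krt9, Krt14, Krt16, Krt17 and Krt42. The 3 basal type I keratins Krt14, Krt15 and Krt17 all lie in this second gap.

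The other 4 chromosome 11 regions lay between Krt42 and the upper edge of the window. One, 19.4 kb from Krt42 in the non-coding RNA gene Gm14206 (chr11:100289263-100289350), was found in EL replicate 2 at percentile 29.7 and in PT replicate 1 at 42.0. A summit 20.4 kb and another 28.9 kb from Krt42 were found in PT replicate 3 only, at 27.0 and 61.9. The last region lay 116 bp from the boundary of Eif1 (chr11:100319772-100319895), within the sequence printed above. It was found in EL replicate 2 at percentile 79.7 and in PT replicates 2 and 3 at 21.9 and 48.5. Eif1 was the only one bound of the 42 other protein-coding genes in this window, 23 of which encode keratin-associated proteins. Of all protein-coding genes 23.1% were bound in 1 or more libraries. No region of the chromosome 11 window was found in more than 3 libraries.

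**Figure D4:**
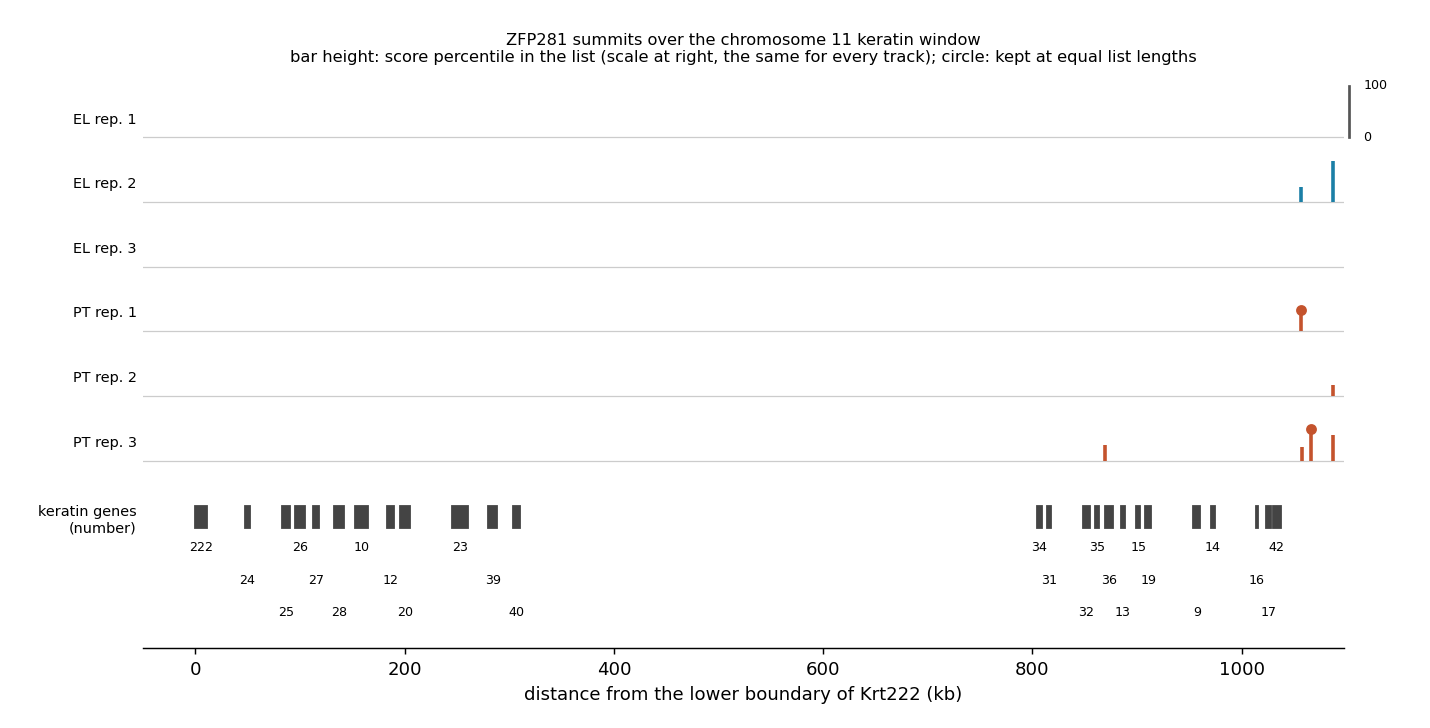
Summits of each library (rows; EL blue, PT red) across the chromosome 11 keratin window, by distance from the lower boundary of Krt222 (horizontal axis, kb). Bar height is the score percentile in the library's own list, circles mark summits kept at equal list lengths, and grey boxes are the keratin genes with their numbers. The 16 keratin genes before Krt36 lie in a stretch where no library has a summit, and EL replicates 1 and 3 have none in the whole window.

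Distance to the nearest summit, a measure chosen after the data had been seen, needs no limit of reach but depends on how many summits a list holds. Neighbouring keratin genes often share a nearest summit, so the 49 distances are not separate measurements. The median over the 49 keratin genes was 155.7, 125.5 and 155.7 kb in EL replicates 1 to 3 and 220.0, 157.7 and 84.9 kb in PT replicates 1 to 3. Over all protein-coding genes it was 57.5, 24.7 and 74.0 kb in EL and 189.1, 133.6 and 83.1 kb in PT. The keratin median was 2.71, 5.07 and 2.10 times that of all genes in EL and 1.16, 1.18 and 1.02 times in PT. The ratio was 0.946, 0.950 and 0.895 in EL and 1.16, 0.980 and 0.798 in PT at equal list lengths. Over the 49 genes together the keratin median was thus the longer one in every full list, and at equal list lengths in PT replicate 1 only.

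**Figure D5:**
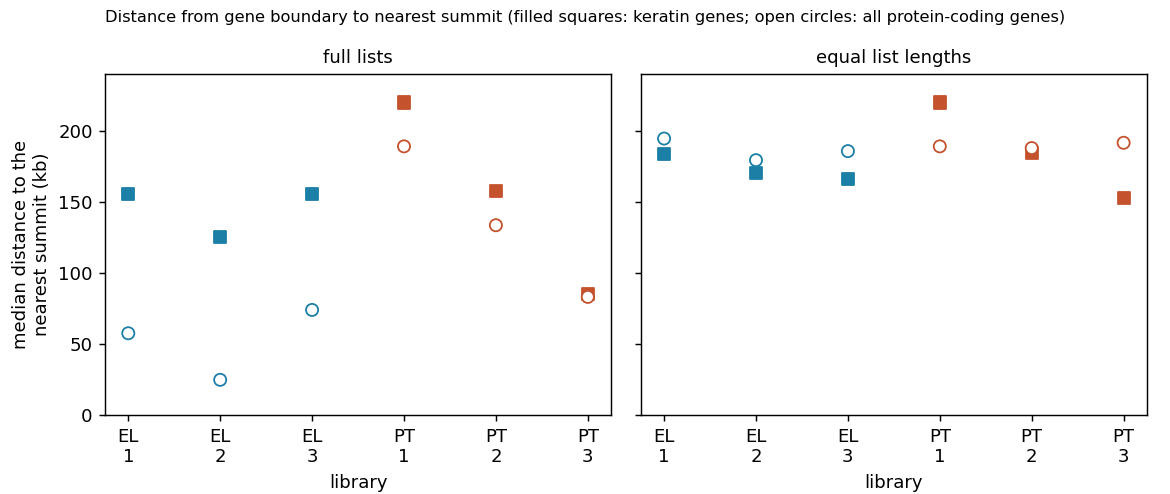
Median distance from a gene to its nearest summit (vertical axis, kb) in each library (horizontal axis), for the 49 keratin genes (filled squares) and all protein-coding genes (open circles), in full lists (left) and at equal list lengths (right). In the full lists the squares lie far above the circles in EL (155.7 against 57.5 kb in replicate 1), and at equal list lengths they lie close together.

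The clusters differed in this measure as well. For the chromosome 11 keratins the median was 227, 180 and 227 kb in EL and 201, 224 and 84.3 kb in PT, against 26.2, 10.9 and 36.7 kb and 95.2, 63.3 and 37.9 kb for all genes of that chromosome. For the chromosome 15 keratins it was 46.8, 39.9 and 46.8 kb in EL and 279, 88.3 and 88.3 kb in PT, against 30.2, 13.0 and 43.8 kb and 125, 61.3 and 44.3 kb for all genes of that chromosome. In the full list of each library both clusters had a longer median distance than their chromosome. With lists of equal length the chromosome 11 keratins had medians of 316, 246 and 227 kb in EL and 201, 269 and 211 kb in PT, against 96.3, 93.8 and 96.9 kb and 95.2, 93.8 and 96.7 kb for their chromosome. The chromosome 15 keratins then had medians of 97.5, 97.4 and 97.4 kb in EL and 279, 88.3 and 88.3 kb in PT, against 110.1, 97.4 and 116.4 kb and 125, 89.7 and 96.9 kb for theirs. The longer distance thus held in all 6 equal-length lists for chromosome 11, and for chromosome 15 in PT replicate 1 only.

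Keratin promoters differed in base composition from those of bound genes. A promoter (250 bases before to 50 after a start, RefSeq, GRCm38.p6) was listed for 35 of the 49 keratin genes and for 17492 of all 21887 genes. The median G+C content was 48.7% for keratins and 56.3% for all genes, and the median number of CpG was 5 and 13. Genes bound in no library had medians of 54.0% and 9, those bound in 1 or more 63.0% and 22, and those bound in all 6 65.2% and 25. The keratin medians lay below each of these. Among the keratins with a promoter entry, Krt7 reached 66.3% G+C and 21 CpG and was not bound, and Krt18 had 61.3% and 17. Base composition moved with binding over all genes, and its part in the low keratin count was not tested.

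The G-rich motif known for ZFP281 was searched for on both strands as GGGGAGGGG and as its shorter part GGGAGGGG, so that each match of the first is also a match of the second. The longer motif was found in 1 of 35 keratin promoters (2.86%), that of Krt75, against 8.31% of all promoters, 5.58% of those of genes bound in no library, 17.6% of those of genes bound in any library and 32% of those bound in all 6. The shorter motif was found in 4 keratin promoters (11.4%), those of Krt75, Krt77, Krt78 and Krt79, against 15.6% of all promoters, 12% of those of genes bound in no library, 27.8% of those of genes bound in any library and 42.0% of those bound in all 6. None of these 4 genes was bound within 1 kb of a boundary. Krt78 does hold regions deeper inside its gene model, the strongest at percentiles of 89.9, 91.0 and 90.5 in EL replicates 1 to 3. The 250 bases before the start of Krt75, a keratin of the companion layer of the hair follicle (chr15:101573905-101574154, minus strand), are shown because they hold the longer motif, with the shorter one in capitals.
Krt75: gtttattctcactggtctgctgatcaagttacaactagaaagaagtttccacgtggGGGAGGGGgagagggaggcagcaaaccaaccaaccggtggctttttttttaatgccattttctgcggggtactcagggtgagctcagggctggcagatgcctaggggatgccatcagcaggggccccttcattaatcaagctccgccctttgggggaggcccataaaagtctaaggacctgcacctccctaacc
The letter before the capitals is a g, which completes the longer motif. A match describes the letters in this window and does not make it a binding site.

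Genes that work with keratins were compared by the same rule. The 20 anchor genes encode parts of desmosomes and hemidesmosomes, the junctions that hold keratin filaments. Of these, 2, 2 and 1 were bound in EL replicates 1 to 3 and 0, 2 and 2 in PT replicates 1 to 3 (8.33% ± 2.89 against 6.67% ± 5.77, SD, n = 3 each, exact permutation test, p = 1). The share of all genes was 11.7% to 20.8% in an EL library and 5.76% to 11.1% in a PT library. The equal-length lists gave 1, 1 and 0 for EL and 0, 2 and 2 for PT, and 4 of the 20 genes were bound in 1 or more full lists, where 23.1% of all genes were. Named after their values were seen, Jup, which encodes plakoglobin, was bound in PT replicates 2 and 3 and no EL library, and Cd151, a tetraspanin of hemidesmosomes, in 3 EL and 2 PT libraries. Of the other 2 bound anchor genes, Pkp4 and Itga6, each was bound in 1 EL library.

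Of the 18 transcription factor genes listed as regulators of keratin genes, 7 were bound in 1 or more libraries, where 23.1% of all genes were. In EL replicates 1 to 3, 3, 5 and 3 were bound, and in PT replicates 1 to 3, 1, 3 and 5 (20.4% ± 6.42 against 16.7% ± 11.1, SD, n = 3 each, exact permutation test, p = 1). The share of all genes was 11.7% to 20.8% in an EL library and 5.76% to 11.1% in a PT library. Equal-length lists gave 1, 1 and 1 for EL and 1, 3 and 2 for PT, so the direction turned (difference −1, exact permutation test, p = 0.4). Tfap2a, an AP-2 factor gene of ectoderm and mammary epithelium, was bound in all 6 libraries, a class of 4.39% of all genes. At equal list lengths it was bound in all 3 PT and no EL library. The share of all genes in that class was not counted, so this is a description of 1 gene. Klf4, a factor gene of the skin barrier, and Lef1, a mediator of Wnt signals in the hair follicle, were bound in 3 EL and 2 PT libraries each. Both were named after their values were seen. So were Klf5 and Ovol1, bound in PT replicate 3 only, and Hoxc13 and Ovol2, bound in EL replicate 2 only. Trp63, which encodes the master factor of stratified epithelium, and Gata3, a luminal factor gene, were bound in no library.

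The 16 genes of other intermediate filaments included 7 that were bound in any library, 3, 7 and 2 of them in EL replicates 1 to 3 and 1 in each PT library (25% ± 16.5 against 6.25% ± 0, SD, n = 3 each). Of all genes 23.1% were bound in 1 or more libraries, and between 11.7% and 20.8% in an EL library against 5.76% to 11.1% in a PT library, so the share over all genes was higher in EL as well. All EL counts of filament genes were above all PT counts (difference 3, exact permutation test, two-sided, p = 0.1). Lmna, which encodes lamins A and C of the nuclear envelope, was bound in all 6 full lists, a class of 4.39% of all genes. It was also bound in all 6 at equal list lengths. Vim, which encodes vimentin, the filament protein of mesenchymal cells, was bound in all 3 EL and no PT library, a class of 1.94% of all genes. At equal list lengths Vim was bound in 1 EL library. At equal list lengths 1, 1 and 2 of these genes were bound in EL replicates 1 to 3 and 1 in each PT library, and the difference fell to 0.333 (exact permutation test, p = 1). None of the 56 keratin-associated protein genes was bound in any library.

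Among the marker genes of other cell types, only those of fibroblasts had every EL count above every PT count. Of 8 fibroblast markers, 5, 6 and 4 were bound in EL replicates 1 to 3 and 0, 0 and 1 in PT replicates 1 to 3 (exact permutation test, two-sided, p = 0.1). No test was planned for the marker lists, so this p-value is a description. Among all genes 11.7% to 20.8% were bound in an EL library and 5.76% to 11.1% in a PT library. At equal list lengths 1, 4 and 4 markers were bound in EL and none in PT, against 5.75% to 6.21% of all genes in any of these lists. Col1a1, Col1a2 and Dcn, which encode matrix proteins of fibroblasts, were each bound in all 3 EL and no PT library, a class of 1.94% of all genes, while Lum and Fap were bound in none. Of 8 lung epithelium markers 2 were bound in each EL library and 0, 1 and 2 in PT (exact permutation test, p = 0.4). None of 5 leukocyte and 4 endothelial markers was bound. A summit is not expression, so no cell type was read from these counts, and their part in the keratin and vimentin results was not tested.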

How the data were processed

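ZFP281 ChIP-seq was sequenced as paired reads of 150 bp in 3 EL and 3 PT libraries, per the labels' protocols, which also name an RNA kit. Bowtie2 2.3.4.3, Picard and build mm10 are named in the submitters' processing notes. Neither the peak caller nor any use of the 2 inputs is given in the sources used here. Per library, and not pooled, the authors deposited 1 summit list. The score deposited with each summit was taken for a −log10 q-value, because the lowest scores, 1.30 to 1.55, lie just above the −log10 of 0.05. That reading comes from the values.

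Positions (1-based) on the autosomes and on X and Y were kept, with genes and promoters from RefSeq (GRCm38.p6). Clusters chained keratin genes at most 500 kb apart and were widened by 50 kb. A percentile is the share of a list with a score at or below the summit's. It therefore depends on how many weaker summits a list holds, and the full lists differ in length. Chromosome density used the end of the last annotated gene as chromosome length. EL and PT were compared by an exact, two-sided permutation test over the 20 relabellings of 6 libraries, whose smallest p is 0.1, so none could pass 0.05. Region p-values were adjusted by Benjamini-Hochberg.

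Members, lists and rules were chosen with earlier results of these data known. Named by rule were all bound keratins, window regions in 2 or more libraries and window neighbours bound in 2 or more. So were list genes bound in all 6 libraries or in 3 of 1 group and none of the other. Other list genes, such as Jup, Cd151, Klf4, Lef1, Trp63 and Gata3, were named outside this rule. Alternatives were equal list lengths, scores of at least 5 or 10, other reaches, flanks and merging distances, each library left out, letter-suffixed keratins and a replicate block. Gene calls were tested on simulated summits. No list repeated another, since a pair shared at most 81 exact positions. Python 3.11.15, numpy 2.4.6 and pandas 2.3.3 were used.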

Additional observations from a re-analysis of the deposited data

How the results depend on the processing

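No comparison reached a p under 0.1 in any of the 190 alternatives, and 3 libraries against 3 allow none lower, so stability here is one of direction only. All values below are EL minus PT. The keratin gene difference, 0 in the full lists, was −0.333 at equal list lengths, −0.667 for scores of at least 5, −0.333 for scores of at least 10, −0.667 within 500 bp, −0.333 within 5 kb, 0.667 with gene bodies and −0.333 at start sites. Leaving out 1 library moved it from −0.667 (without EL replicate 2) to 0.667 (without PT replicate 3).

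The anchor gene difference of 0.333 became −0.667 at equal list lengths and 0 for either score limit and at start sites, and ran from −0.333 (without PT replicate 1) to 0.667 with 1 library left out. The regulator difference of 0.667 became −1 at equal list lengths and −0.333 with gene bodies, and ran from −0.333 (without PT replicate 1) to 1.67 (without PT replicate 3). The chromosome 11 window difference of −1.33 became 0 for scores of at least 10 and 1.67 with flanks of 100 kb, and that of the chromosome 15 window, 3.33, became −0.333 at equal list lengths. The cause of these turns was not tested.

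Percentile differences turned to −11.1 for the region 20.8 kb below Krt80 and to −0.771 for the region 10.5 kb upstream of Krt8 at equal list lengths, and to −10.4 for the Eif4b region when merging at 50 bp. The number of regions whose groups did not overlap, 2, became 1 at equal list lengths, for scores of at least 10 and when merging at 50 bp, and ran from 0 to 3 with 1 library left out. It counts only regions found in 4 or more of the lists used, which drops regions that shorter lists leave in 3. Over the 6 regions of the full lists, 3 did not overlap at equal list lengths: 53.0 for the Krt78 region, −49.3 for the region 2196 bp upstream of Krt8 and −65.8 for that upstream of Krt18. Differences in summits per 1000 and in other filament genes kept their sign in every alternative run, but the former shrank from −0.790 to −0.399 with no flank (p = 0.3) and to −0.249 with flanks of 100 kb (p = 0.8), where the groups overlapped (exact permutation tests).

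Same-numbered libraries did not deviate together (r = −0.0601, −0.000761 and −0.00919 over regions), so the numbers were not taken as pairs. With the replicate block the difference in summits per 1000 was the same −0.790 (exact sign-flip test, p = 0.25, the smallest that 3 pairs give).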
